A study of Homo sapiens with 4 samples.

Results

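HCT116 is an established human colorectal cancer cell line. HCT116-R is the acquired radioresistant line derived from it, for which parental cells were irradiated repeatedly with 4 Gy of X-rays up to 40 Gy in total and then kept without irradiation before use. Small RNA of the size of mature microRNAs (miRNAs) was sequenced from 1 library of each line, and the same was done for a second parental and radioresistant pair, RKO and RKO-R. The comparison described here is HCT116-R against HCT116. It has no replicate, and the sources used here do not say whether HCT116-R is 1 clone, so the difference between the lines and the difference between single libraries cannot be told apart. For this reason no p-value is given, and every interval below covers counting error only.

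The miRNAs compared were those with 50 or more counts in at least 1 of the 2 libraries. This rule kept 399 of the 1322 miRNAs listed in the pair and of the 1474 listed in the series, and these 399 held 99.9% of all counts in either library. The library totals were 6823240 counts for HCT116 and 6818497 for HCT116-R, so after scaling each library to 1000000 counts (CPM), 1 count was worth 0.147 CPM in both. Where counts are given in pairs below, HCT116 comes first and HCT116-R second. A miRNA with 0 counts could still be present at up to 3 counts, or 0.44 CPM. At the edge of the rule, the 17 miRNAs whose higher count was 50 to 54 had a median log2 ratio of 0.09, and the 16 left out with 45 to 49 counts had one of 0.37.

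A miRNA is cut from a hairpin transcript and loaded into an Argonaute protein, where it pairs with messenger RNAs and lowers their translation and stability. Pairing is led by the seed, bases 2 to 8 of the mature strand, so miRNAs with the same seed form a family with largely shared targets. Either arm of a hairpin, named 5p or 3p, can give the mature strand, and hairpins that lie close together are often cut from 1 transcript. Families, clusters and arms are therefore the units in which the 399 miRNAs are described.

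The mature sequences below are those on which the results turn, with the seed in capitals, from RefSeq (GRCh38.p14). A sequence was found for 355 of the 399 miRNAs. The first set is the miR-302 family, whose members share 1 seed and were all higher in HCT116-R.
miR-302a-3p: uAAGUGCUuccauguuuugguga
miR-302b-3p: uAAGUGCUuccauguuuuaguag
miR-302c-3p: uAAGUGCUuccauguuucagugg
miR-302d-3p: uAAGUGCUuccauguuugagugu

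The next set shows other miRNAs with large differences whose counts do not share a locus with an antisense miRNA. Both arms of the miR-30a hairpin, miR-155-5p and miR-339-5p were higher in HCT116-R. miR-204-5p, miR-205-5p, miR-199a-5p, miR-1307-5p and miR-31-5p were lower, and miR-211-5p is shown because it has the seed of miR-204-5p.
miR-30a-5p: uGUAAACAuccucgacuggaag
miR-30a-3p: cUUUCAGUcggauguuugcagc
miR-155-5p: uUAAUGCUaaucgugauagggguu
miR-339-5p: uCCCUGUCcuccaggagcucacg
miR-204-5p: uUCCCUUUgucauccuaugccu
miR-211-5p: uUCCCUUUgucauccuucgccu
miR-205-5p: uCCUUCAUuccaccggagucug
miR-199a-5p: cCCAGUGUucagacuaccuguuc
miR-1307-5p: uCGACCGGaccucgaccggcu
miR-31-5p: aGGCAAGAugcuggcauagcu

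The third set consists of pairs of miRNAs listed from opposite strands of 1 locus, although miR-7-5p can also come from MIR7-1 and MIR7-3. In each of these pairs the mature sequences are exact reverse complements of each other over their whole length, 24 bases for miR-7-5p with miR-3529-3p, 23 for miR-423-5p with miR-3184-3p, and 22 for miR-374b-5p with miR-374c-3p.
miR-7-5p: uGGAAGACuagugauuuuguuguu
miR-3529-3p: aACAACAAaaucacuagucuucca
miR-423-5p: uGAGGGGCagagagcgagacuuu
miR-3184-3p: aAAGUCUCgcucucugccccuca
miR-374b-5p: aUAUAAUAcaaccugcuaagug
miR-374c-3p: cACUUAGCagguuguauuauau

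The last set holds members of 2 groups whose members all lay on 1 side of a ratio of 1 by library totals. They are the miR-15/16 family with its shared seed, and the cluster of miR-182, miR-96 and miR-183, whose seeds are near-identical. Of those shown, only miR-497-5p was past 2-fold.
miR-16-5p: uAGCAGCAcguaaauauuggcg
miR-15a-5p: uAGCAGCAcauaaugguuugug
miR-497-5p: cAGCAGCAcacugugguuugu
miR-182-5p: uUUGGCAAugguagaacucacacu
miR-96-5p: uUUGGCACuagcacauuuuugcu
miR-183-5p: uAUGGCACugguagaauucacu

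Most of the miRNA profile of HCT116 was retained in HCT116-R. Of the 399 miRNAs, 329, or 82.5%, differed by less than 2-fold, 35 were at least 2-fold higher in HCT116-R and 35 at least 2-fold lower, which is 8.77% in each direction and 17.5% in either. A difference of at least 4-fold was found for 18 higher miRNAs (4.51%) and 14 lower ones (3.51%), together 8.02%. The log2 ratio of CPM, HCT116-R over HCT116, had a median of -0.08, and its middle range ran from -0.45 at the lower quartile to 0.35 at the upper. The split between directions depended on the scaling, since with library totals taken without the 12 most abundant miRNAs, all log2 ratios rose by 0.13 and the counts became 47 higher and 25 lower.

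Large differences were more frequent among less abundant miRNAs. The share past 2-fold was 23% of the 148 miRNAs with 50 to under 200 counts, 22.5% of the 102 with 200 to under 1000, 7.61% of the 92 with 1000 to under 10000 and 10.5% of the 57 above that. Of the 149 miRNAs with 1000 or more counts in a library, 4 were past 2-fold higher and 9 past 2-fold lower. The higher ones were miR-3529-3p, miR-3184-3p, miR-4521 and miR-374c-3p. The lower ones were miR-31-5p, miR-7-5p, miR-33a-5p, miR-423-5p, miR-200b-5p, miR-1275, miR-204-5p, miR-143-3p and miR-374b-5p. Of these 13, 6 have an antisense partner among the sequences shown above.

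**Figure D1:**
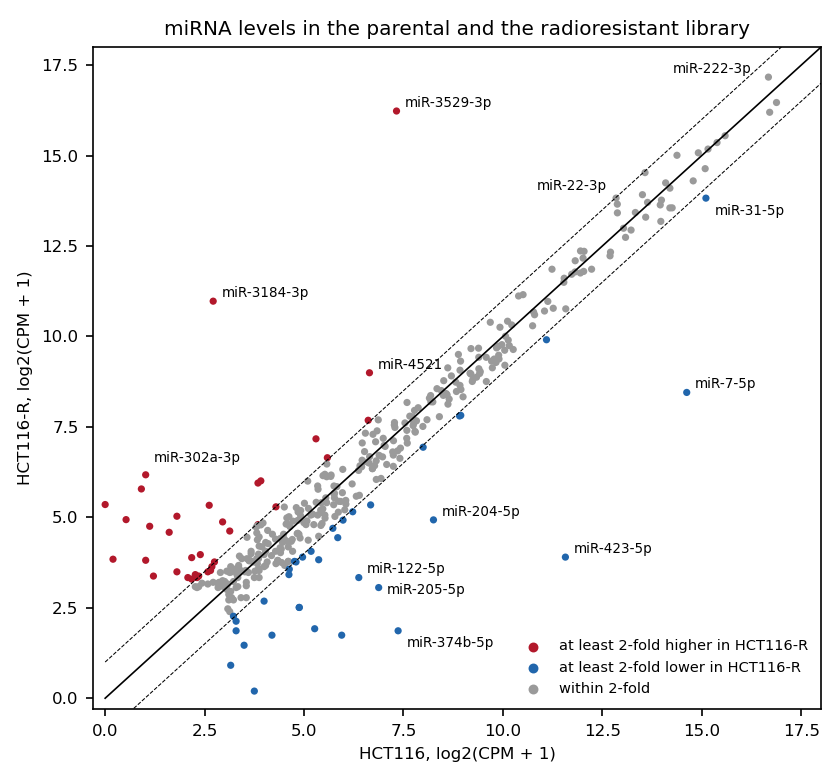
Level of each of the 399 miRNAs in HCT116 (horizontal axis) and HCT116-R (vertical axis), both as log2(CPM + 1), with 1 point per miRNA, a solid line of equality and dashed lines at 2-fold. The 329 grey points lie within 2-fold, and miR-3529-3p and miR-7-5p stand far from the line among miRNAs of 1000 or more counts.

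The miR-302 family had the largest coordinated difference in the pair. These miRNAs are known as the main miRNAs of pluripotent stem cells and are silent in most differentiated tissues. miR-302a-3p had 7 parental and 486 radioresistant counts, a 69.5-fold difference (95% interval 33.5 to 174). miR-302b-3p went from 6 to 369 counts, 61.5-fold higher (28 to 169), and miR-302d-3p from 3 to 202, 67.4-fold higher (22.7 to 329).

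For miR-302c-3p, with 1 parental and 91 radioresistant counts, the ratio was 91.1 with an interval of 15.9 to 3636. All 4 were thus high in the radioresistant library and near the floor in the parental one. Their summed level was 2.49 CPM in HCT116 and 168 CPM in HCT116-R, 67.6-fold higher, which makes them a small share of the library even where they were high.

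The 4 hairpins lie together on the minus strand at chr4:112648004-112648557 (GRCh38), MIR302B in an exon and the others in introns of the non-coding gene AC106864.1, and on the opposite strand of an intron of the protein-coding gene LARP7. The 5p arms were listed only in HCT116-R, miR-302a-5p with 2 counts and miR-302c-5p with 4. In RKO and RKO-R the family was not detected, apart from 1 count of miR-302a-3p in RKO-R.

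Another cluster used as a marker of pluripotent cells, miR-371 to miR-373, stayed below the limit of 50 counts. miR-371a-3p had 0 parental and 11 radioresistant counts, miR-372-3p 0 and 9, and miR-371a-5p 0 and 1. Like the miR-302 family, these miRNAs had their counts in HCT116-R and none in RKO or RKO-R. Against the floor of 3 counts, the ratios allowed by so few counts are small, and they do not enter the counts of miRNAs past 2-fold. The list of pluripotency clusters therefore had 4 members of its 7 miRNAs, with a median log2 ratio of 6.01 beside -0.08 for all 399. All 4 come from 1 genomic cluster and passed the limit of 50 counts only through HCT116-R. That all 4 were higher was thus set by the rule and their low parental counts, and is no separate evidence.

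The miR-17 family, whose seed AAAGUGC holds the first 6 letters of the miR-302 seed AAGUGCU one base further along, did not move with it. None of its 4 members was past 2-fold, and their log2 ratios ran from -0.70 to 0.05 with a median of -0.34. miR-93-5p, the member with the highest share of counts, had 45164 parental and 32684 radioresistant counts.

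The largest single bound was that of miR-490-5p, with 0 parental and 272 radioresistant counts, which is at least 90.7-fold higher against the floor of 3 counts. Its hairpin lies in an intron of CHRM2, the muscarinic acetylcholine receptor gene, at chr7:136903167-136903294 on the plus strand. The other arm, miR-490-3p, had 0 and 2 counts, and neither RKO library held any count of miR-490-5p.

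Both arms of miR-30a were higher in HCT116-R. miR-30a-5p, a member of a family with broad roles in differentiation and autophagy, had 8 parental and 177 radioresistant counts, 22.1-fold higher (11 to 52.1). miR-30a-3p had 7 and 89 counts, 12.7-fold higher (5.93 to 32.6). The arms come from 1 hairpin within intronic sequence of LINC00472, a non-coding gene, and they differed in the same direction. Neither the hairpin transcript nor its host gene was measured.

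The rest of the miR-30 family, with the same seed, did not follow. Of its 5 members only miR-30a-5p was past 2-fold, while miR-30e-5p had 89 and 155 counts, miR-30c-5p 312 and 310, miR-30d-5p 2665 and 3818, and miR-30b-5p 8354 and 5432. The summed level of the family was 1675 CPM in HCT116 and 1451 CPM in HCT116-R. The higher level of miR-30a-5p, 26 CPM, was thus a small part of the family's total.

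miR-155-5p, an inflammation-related miRNA encoded in an exon of MIR155HG, had 14 parental and 157 radioresistant counts, 11.2-fold higher (6.49 to 21). Its level in HCT116-R, 23 CPM, was low beside RKO and RKO-R, which held 33913 and 39597 counts. miR-363-3p, from the X-linked paralogue of the miR-17/92 cluster, had 91 and 414 counts, 4.55-fold higher (3.62 to 5.78). Its cluster neighbour miR-92a-3p, which can also come from the cluster on chromosome 13, differed by 0.16 on the log2 scale.

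The miR-25/32/92 family, to which miR-363-3p and miR-92a-3p belong, had no other member past 2-fold among its 5. miR-4521, chosen after its values were seen, had 676 parental and 3474 radioresistant counts, 5.14-fold higher (4.73 to 5.59). It is the only higher miRNA with 1000 or more counts that has no antisense partner in the annotation. Other miRNAs seen to be at least 4-fold higher were miR-551a (35 and 268 counts), miR-592 (9 and 64), miR-1246 (46 and 193) and miR-675-5p, which is cut from the imprinted RNA H19 (17 and 70).

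**Figure D2:**
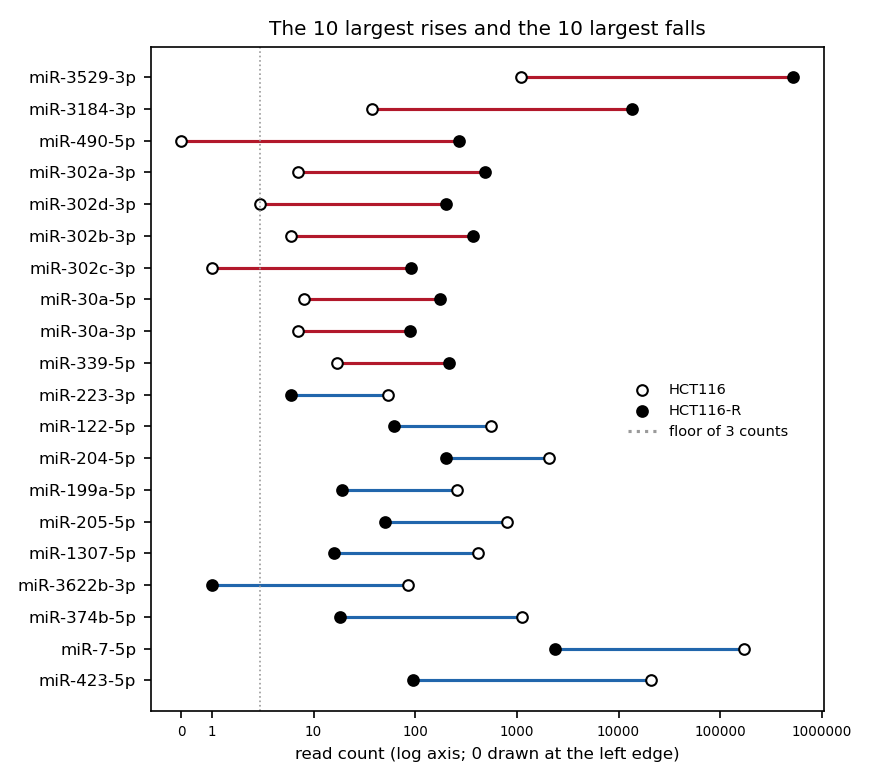
Read counts of the 10 largest rises and the 10 largest falls on a log axis, open circles for HCT116 and filled circles for HCT116-R, with 0 drawn at the left edge and the floor of 3 counts dotted. miR-302a-3p to miR-302d-3p start at 1 to 7 counts in HCT116, and miR-204-5p and miR-205-5p end at 201 and 50 counts in HCT116-R.

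Among the lower miRNAs without an antisense partner, miR-1307-5p, described with the arms below, had the lowest ratio, followed by miR-205-5p, miR-199a-5p and miR-204-5p. miR-205-5p, known from stratified epithelia as an inhibitor of the mesenchymal regulators ZEB1 and ZEB2, had 795 parental and 50 radioresistant counts, 15.9-fold lower (11.9 to 21.6). Its hairpin lies in an exon of the non-coding host gene MIR205HG at chr1:209432133-209432242 on the plus strand. RKO had 0 counts of it and RKO-R 2.

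miR-204-5p, encoded in an intron of the cation channel gene TRPM3 at chr9:70809975-70810084 on the minus strand, had 2076 and 201 counts, 10.3-fold lower (8.93 to 12). miR-211-5p, with the same seed and a nearly identical mature sequence, was at 55 and 40 counts, a 1.37-fold difference whose interval of 0.898 to 2.12 includes 1. The 2 miRNAs thus differed in their ratio despite the shared seed, and reads that match both could be divided between them in counting.

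miR-200 family members, which repress the same ZEB factors as miR-205-5p, were retained. miR-200c-3p had 291469 parental and 286432 radioresistant counts, miR-141-3p 6630 and 8320, and miR-429 108375 and 86721. No 3p member of the family was past 2-fold. The cluster on chromosome 1 that holds MIR200B, MIR200A and MIR429 had all 5 of its members below a ratio of 1, with log2 ratios of -1.13 to -0.24, while 3 of the 4 members from the chromosome 12 cluster of MIR200C and MIR141 were above 1, between -0.02 and 0.33 in all. The sole member past 2-fold in either cluster was miR-200b-5p, with 3345 and 1532 counts.

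The list of colorectal epithelium markers had 9 of its 10 miRNAs among the 399, none past 2-fold, and a sum of 66709 CPM in HCT116 and 60966 CPM in HCT116-R. miR-200c-3p alone gave 42717 and 42008 CPM of this sum, which therefore says little about the other markers or the colorectal label. miR-192-5p was at 226 CPM in HCT116 and 202 CPM in HCT116-R, and miR-194-5p at 112 and 65.1 CPM. miR-215-5p was at 0 parental and 3 radioresistant counts. miR-375-3p, a marker of secretory epithelial cells, had 20876 and 11838 counts, a log2 ratio of -0.82.

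Some markers of other cell types were among the lower miRNAs. Fibroblast and smooth muscle markers summed to 2529 and 1102 counts, a log2 ratio of -1.20, with 4 of 5 among the 399 and 3 of these past 2-fold lower, beside 8.77% of all 399. miR-143-3p had 1733 and 829 counts, miR-199a-5p 256 and 19, miR-199a-3p 194 and 32, miR-145-5p 307 and 221 and miR-214-3p 39 and 1. All 5 were lower, miR-143-3p by 2.09-fold and miR-199a-5p by 13.5-fold (8.45 to 22.7). miR-145-3p, the other arm of miR-145-5p and not on the list, had a log2 ratio of 0.11. miR-199b-3p has the same mature sequence and the same counts as miR-199a-3p, so they are 1 measurement listed under 2 names. In a library from a whole culture, fewer cells with a miRNA and less of it per cell cannot be told apart, and the part of other cells in these values was not tested.

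miR-122-5p, the miRNA that dominates liver cells and the only liver marker listed, had 560 and 62 counts, 9.03-fold lower (6.93 to 11.9). Of the blood markers, miR-223-3p had 54 and 6 counts, miR-142-3p 26 and 66, miR-142-5p 17 and 26, and miR-150-5p 27 and 37, and their sum was 18.2 CPM in HCT116 and 19.8 CPM in HCT116-R. Erythroid markers summed to 29.6 and 23.8 CPM and skeletal muscle markers to 1.76 and 1.17 CPM. Of the neuronal markers, miR-124-3p had 0 and 4 counts, and miR-128-3p, which many tissues express, had 7802 and 5849. Thus only the fibroblast list and the single liver marker were lower by more than 2-fold in their sum.

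Measured in CPM rather than in fold, miR-3529-3p again differed most, with a gain of 76740 CPM, and the next 3 were abundant miRNAs within 2-fold, ahead of miR-7-5p, which was lower by 24847 CPM. miR-222-3p, which targets cell-cycle inhibitors such as CDKN1B, took 10.5% of all counts in HCT116 and 14.7% in HCT116-R, a gain of 42566 CPM at a log2 ratio of 0.49. miR-21-5p, a widely expressed miRNA known from many tumours, took 12% and 9.05%, and miR-100-5p, for which mTOR is a known target, 10.7% and 7.51%. The order of these miRNAs by share of counts was therefore different in the 2 libraries, with miR-21-5p first in HCT116 and miR-222-3p first in HCT116-R.

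miR-31-5p, encoded in an intron of MIR31HG and abundant in colorectal cancer, had 240229 parental and 98774 radioresistant counts, 2.43-fold lower (2.41 to 2.45). Its other arm, miR-31-3p, had 45555 and 35107 counts, and the 5p share of the hairpin was 84.1% and 73.8%. miR-22-3p, from an exon of MIR22HG, had 50188 and 98874 counts, 1.97-fold higher (1.95 to 1.99), and miR-22-5p had 53 and 161. Both of these hairpins, chosen after their values were seen, moved with both arms in 1 direction, but only 1 arm of each was past 2-fold.

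miR-182-5p, which is known to repress the repair gene BRCA1, had 83136 and 161126 counts, 1.94-fold higher (1.92 to 1.96). The other members of its cluster on chromosome 7, miR-96-5p (16425 and 25308 counts) and miR-183-5p (70240 and 75039), were also above a ratio of 1, and so were the minor arms, making 5 of 5. Their log2 ratios ran from 0.05 to 0.96 and stayed above 0 under every scaling, although none was past 2-fold. The summed level of the 3 major arms was 24886 CPM in HCT116 and 38348 CPM in HCT116-R.

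The let-7 family, which holds back proliferation by repressing RAS and MYC, was nearly level in its sum. All 9 members, miR-98-5p included, were within 2-fold, with log2 ratios of -0.48 to 0.93, a median of 0.02, and a sum of 122878 CPM in HCT116 and 126039 CPM in HCT116-R. Within this level sum, let-7i-5p had 145052 and 224487 counts, let-7c-5p 226 and 430, and let-7b-5p was lower by 8040 CPM. The family's members thus moved in different directions by less than 2-fold each.

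The miR-15/16 family, which represses BCL2 and cyclins, had a ratio below 1 in every member. Its 6 members had log2 ratios of -1.45 to -0.03 with a median of -0.76 beside -0.08 for all 399. miR-16-5p had 109428 parental and 63293 radioresistant counts, 1.73-fold lower (1.71 to 1.74). miR-15a-5p had 7221 and 4014, miR-15b-5p 5992 and 4519, and miR-195-5p 66 and 40. miR-497-5p, with 386 and 141 counts, was the only member past 2-fold. miR-424-5p, with 875 and 859, turned to the other side of 1 when the 12 most abundant miRNAs were left out of the totals. In the cluster of MIR15B and MIR16-2, 3 of 4 members were below 1. The other was miR-15b-3p, the other arm of miR-15b-5p with a different seed, at a log2 ratio of 0.69.

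Of the 29 clusters with at least 3 members, 6 had every member on 1 side of 1 under every scaling. Both arms of a hairpin count as members here. The number of such clusters to be found without any shared movement was not computed, so this count is only descriptive. Among the 6 were those of MIR302A, MIR182 and MIR200A described above, the first with members that passed the limit only through HCT116-R. The cluster on chromosome 7 that holds MIR106B, MIR93 and MIR25, inside a gene for the replication helicase MCM7, had 5 of 5 below 1, from -0.83 for miR-25-3p to -0.35. The imprinted cluster on chromosome 14, of which 9 hairpins from MIR379 to MIR409 (chr14:101022066-101065378, plus strand) gave 8 members, had 8 of 8 above 1, from 0.09 to 0.99 for miR-376b-3p. Their median log2 ratios were -0.56 and 0.34, and that of the remaining one, MIR130B with MIR301B, was -0.38. None of these last 3 clusters had a member past 2-fold.

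Over the whole set, few families or clusters were displaced as units. Of the 30 family lists with at least 2 members, 3 had a median log2 ratio of at least 1 in size. They were the pluripotency clusters, whose members passed the limit only through HCT116-R, the miR-374 family (miR-374b-5p at -5.96 and miR-374a-5p at -0.11) and the list of miR-203 and miR-205 (miR-205-5p at -3.99 and miR-203a-3p at 0.03). In the last 2 lists, 1 member of 2 made the median. Of the 36 genomic clusters with at least 2 members, only MIR302A to MIR302D and MIR195 to MIR497 (median -1.09) reached that size.

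In 5 other lists, 1 member was past 2-fold and the rest were not. These were miR-30a-5p, miR-155-5p, miR-363-3p and miR-320b (262 and 975 counts, 3.72-fold higher) among the higher ones, and miR-497-5p among the lower. miR-320b has the seed and nearly the whole sequence of miR-320c and miR-320d, and how reads that match several were counted is not given. The list of miRNAs tied to DNA damage and radiation had all 11 of its miRNAs among the 399. It is in part the study's choice on these libraries, so its direction is no independent evidence. Only miR-423-5p and miR-7-5p were past 2-fold, both lower, and both belong to antisense pairs. The others ranged up to 0.78 for miR-24-3p, and miR-34a-5p, a transcriptional target of p53, had 119070 and 132334 counts.

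The remaining family lists of at least 2 members had every member within 2-fold. The same was true of the miR-17/92 cluster on chromosome 13, a MYC target, with 9 members with log2 ratios of -0.48 to 0.47. miRNAs of the HOX gene clusters, which follow body position, had 5 with a median of -0.03 and miR-10a-5p at 79455 and 105541 counts. The miR-181 family (4 members) had a median of 0.08 and the miR-29 family (3 members), known for repressing collagen genes, one of -0.18.

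Lists with a median below that of all 399 included the family of miR-130b-3p and miR-301a-3p at -0.43, the miR-26 family at -0.34, the family of miR-148a-3p at -0.31 and the miR-23/27/24 clusters at -0.29. In the last list, miR-27a-3p had a log2 ratio of -0.70 and miR-24-3p one of 0.78. miR-24-3p had 51283 and 88017 counts, can come from either of 2 clusters, and has an antisense partner, with which its summed log2 ratio was 0.63. miR-210-3p, the miRNA induced by hypoxia, had a log2 ratio of 0.34. The miR-34 list had both of its members above 1, at 0.15 for miR-34a-5p and 0.20 for miR-449a.

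**Figure D3:**
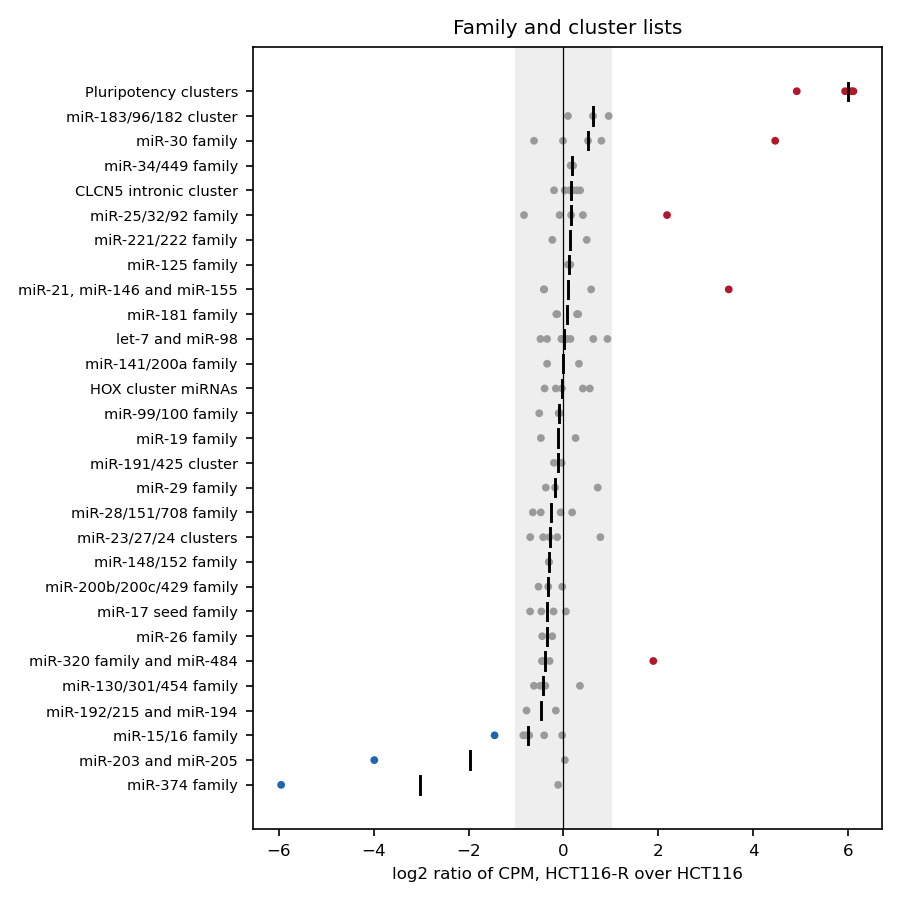
Log2 ratio of CPM, HCT116-R over HCT116, for each member of the family and cluster lists with at least 2 members, with 1 point per miRNA, a black bar at the list's median and grey shading within 2-fold. The list of miRNAs tied to DNA damage and radiation is not drawn. The pluripotency clusters lie apart at a median of 6.01, and the miR-15/16 family has all 6 members below 0.

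The arms of a hairpin were compared next. Of the miRNAs past 2-fold, 31 had another arm with at least 10 counts in a library, and this arm was on the same side of 1 for 20 of them and past 2-fold on that side for 6. These 6 include both arms of the miR-30a and the miR-199a hairpin, each arm entered once. The same share over all hairpins was not computed, so these counts are only descriptive. Both arms could be set side by side for 190 hairpins with a sum of at least 50 counts in each library. The log2 ratio of 5p to 3p counts shifted by less than 1 in 147 of them, with a median size of 0.51, and by at least 2 in 13, of which 3 involve antisense miRNAs. The arm with more counts was the same in both libraries for 184 hairpins and changed for 6, namely those of miR-374b, miR-331, miR-199a, miR-574, miR-486 and miR-455.

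The miR-1307 hairpin, in an untranslated exon of ATP5MD on chromosome 10, had the largest shift among hairpins without an antisense partner. miR-1307-5p had 414 parental and 16 radioresistant counts, 25.9-fold lower (15.7 to 45.7), while miR-1307-3p had 3333 and 4343. The 5p share was 11% in HCT116 and 0.37% in HCT116-R. In the other pair the share was 2.73% in RKO and 24.9% in RKO-R.

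For the miR-339 hairpin, in an intron of C7orf50 on chromosome 7, the 5p share was higher in HCT116-R. miR-339-5p had 17 and 216 counts, 12.7-fold higher (7.76 to 22.2), miR-339-3p had 1028 and 712, and the 5p share was 1.63% in HCT116 and 23.3% in HCT116-R. RKO had a 5p share of 44.3% and RKO-R one of 11.1%. In both hairpins the arm that differed was thus the one with fewer counts, and the direction in the RKO pair was the opposite.

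The miR-532 hairpin in the CLCN5 gene showed the same form. miR-532-3p, the minor arm, had 96 and 432 counts, 4.5-fold higher (3.6 to 5.68), while miR-532-5p had 12128 and 10571. None of the 6 members of the CLCN5 list, which leaves this arm out, was past 2-fold. The other arm of miR-199a-5p, miR-199a-3p, was lower as well (6.06-fold), and this was the only hairpin of the 79 with 50 counts in a library for each arm where both arms were past 2-fold in 1 direction. The miR-30a hairpin, under 50 counts in HCT116, was not among the 190. In 15 of the 79 only 1 arm was past 2-fold, in 63 neither, and in none were the arms past 2-fold in opposite directions.

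**Figure D4:**
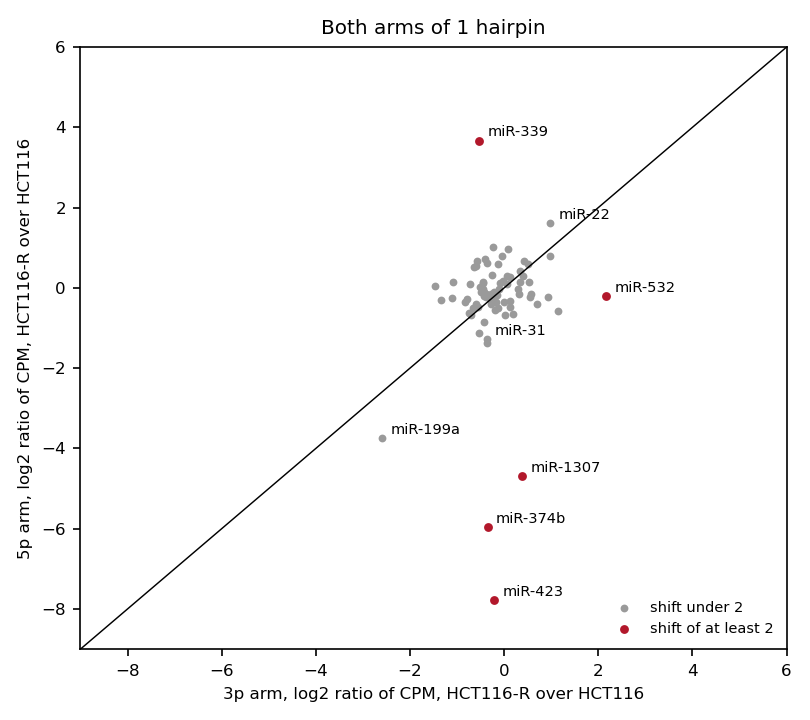
Log2 ratio of CPM, HCT116-R over HCT116, of the 3p arm (horizontal) and of the 5p arm (vertical) for the 79 hairpins with at least 50 counts in a library for each arm, with a line of equal ratios. miR-423, miR-374b, miR-1307, miR-339 and miR-532, in red, lie off the line by a shift of at least 2, and miR-199a lies near it with both arms lower.

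The most extreme differences belong to the antisense pairs shown above. miR-7-5p had 171920 parental and 2381 radioresistant counts, whereas miR-3529-3p, from the opposite strand of MIR7-2, had 1087 and 524339. miR-423-5p had 20749 and 95 counts, and miR-3184-3p 38 and 13716. miR-374b-5p had 1118 and 18, and miR-374c-3p 661 and 1394. In each pair the 5p miRNA was lower and its complement higher. Within its pair, miR-374b-5p held 62.8% of the counts in HCT116 and 1.27% in HCT116-R.

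Since the use of strand in counting is not given in the sources used here, each of these miRNAs is uncertain taken singly, and the sum of a pair was computed as well. Summed, miR-423-5p with miR-3184-3p had 20787 and 13811 counts, a log2 ratio of -0.59. For miR-374b-5p with miR-374c-3p the sums were 1779 and 1412, a log2 ratio of -0.33. For miR-7-5p with miR-3529-3p they were 173007 and 526720, a log2 ratio of 1.61. The first 2 sums were thus within 2-fold, and the third was higher although miR-7-5p taken singly was lower.

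The other arms of these hairpins moved little. miR-423-3p had 110657 and 95110 counts, and miR-374b-3p had a log2 ratio of -0.35. Both of these arms also have a listed antisense partner, but no such exchange was seen there. The partner miR-3184-5p had 0 and 1 counts, and miR-374c-5p had 1 and 1. miR-7-2-3p, the other arm at MIR7-2, had 8 and 8 counts, and miR-7-1-3p, from another of the miR-7 genes, had 6468 and 5781. Of the 70 miRNAs past 2-fold, 9, or 12.9%, had an antisense partner listed in the pair, beside 22, or 5.51%, of all 399. After summing, 6 of the 9 were within 2-fold. miR-103a-3p was among them, with 275 and 90 counts beside 4701 and 3552 for its exact complement miR-103b.

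The RKO pair shares no library with the HCT116 pair, and 35 of the 70 miRNAs had 50 or more counts in one of its libraries. Of the 17 higher in HCT116-R, 2 were past 2-fold higher in RKO-R and 4 past 2-fold lower. Of the 18 lower in HCT116-R, 3 were past 2-fold lower in RKO-R and 6 past 2-fold higher. Among all 293 miRNAs that passed the count limit in both pairs, 7.17% were past 2-fold higher in RKO-R and 14.7% lower.

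The 5 miRNAs past 2-fold in the same direction in both pairs were miR-3184-3p with miR-3529-3p among the higher, and among the lower miR-7-5p, miR-122-5p and miR-423-5p, so 4 of them belong to antisense pairs. miR-122-5p had 109 and 18 counts in RKO and RKO-R. miR-374b-5p, by contrast, had 1431 and 1202 counts in the RKO pair, and its shift to miR-374c-3p was seen in the HCT116 pair alone, a difference that was not tested. The miR-302 family, miR-490-5p, miR-205-5p and miR-30a-3p were among the 35 miRNAs that stayed below 50 counts in the RKO pair. miR-522-3p, which the study's text names, was below 50 counts in every library and so was not among the miRNAs compared. It had 1 and 29 counts in the HCT116 pair, and 17 in RKO and 47 in RKO-R.

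**Figure D5:**
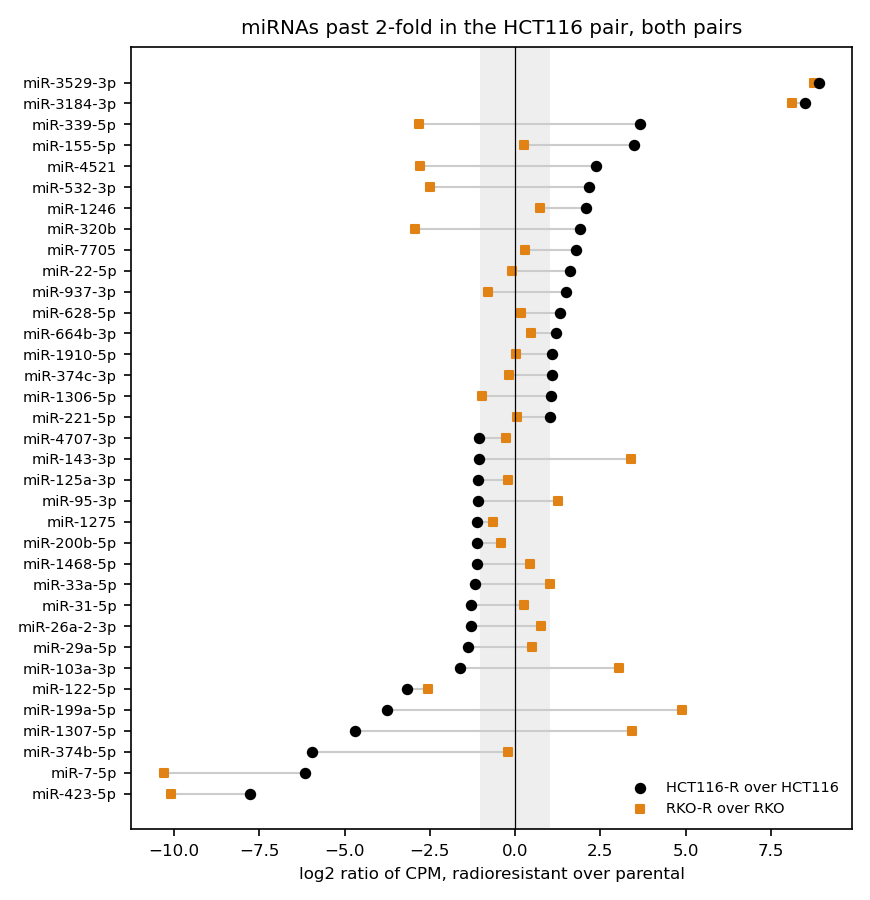
Log2 ratio of CPM, radioresistant over parental, for the 35 miRNAs past 2-fold in the HCT116 pair that had at least 50 counts in a library of the RKO pair, with circles for the HCT116 pair, squares for the RKO pair and grey shading within 2-fold. Squares and circles fall on the same side past 2-fold for 5 miRNAs and on opposite sides for 10.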

How the data were processed

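Small RNA libraries of 4 cell lines, 1 each, were compared. The authors deposited counts per mature miRNA, 1 table a library, made from size-selected RNA with adapters carrying unique molecular identifiers. The submitters' processing notes name hg38 and Bowtie2. The miRNA annotation, use of strand, treatment of reads with several matches and collapse of identifiers are not given in the sources used here.

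Counts were joined by name, a missing miRNA set to 0, and scaled by library totals to CPM. For ratios, a count of 3 or fewer was set to 3. A printed fold against 1 to 3 counts uses the count itself, and one against 0 is a bound. Intervals are exact 95% conditional binomial (Clopper-Pearson). Hairpins came from GENCODE 29 (GRCh38), with clusters on 1 strand joined over at most 10 kb. Ratios and intervals were tried on libraries simulated with counting error alone. That setting holds no spread between cultures and no error of strand or of reads with several matches.

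The miRNAs named were the 10 largest rises and falls, the 10 most abundant, for each family list the most abundant and the most changed past 2-fold, the extremes of clusters of at least 3, the 5 largest arm shifts, other arms and antisense partners of these, and those in the study's text. Others were chosen after their values were seen. The miRNAs and lists were chosen with earlier results of these data known.

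Alternatives were TMM of edgeR 4.0.16, size factors of DESeq2 1.42.0, totals without the 12 most abundant miRNAs, limits of 10 and 200 counts, a 4-fold limit, CPM + 1, summed antisense pairs, a 50 kb gap and an arm sum of 200. R 4.3.3, Python 3.11.15, pandas 2.3.3, scipy 1.17.1 and matplotlib 3.10.9 were used.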

Additional observations from a re-analysis of the deposited data

Results flagged for a closer look

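For 10 miRNAs the ratio was past 2-fold in opposite directions in the HCT116 and RKO pairs, each with 1 library a side, and the difference was not tested. The values are the log2 ratio in the HCT116 pair less that in the RKO pair. Higher in HCT116-R and lower in RKO-R were miR-339-5p, with a difference of 6.49, miR-4521 (5.15), miR-320b (4.83) and miR-532-3p (4.67). Lower in HCT116-R and higher in RKO-R were miR-199a-5p (-8.64), miR-1307-5p (-8.13), miR-103a-3p (-4.64), miR-143-3p (-4.46), miR-95-3p (-2.33) and miR-33a-5p (-2.21). miR-199a-5p had 256 and 19 counts in the HCT116 pair and 0 and 86 in the RKO pair, and miR-143-3p had 1733 and 829 against 51 and 522. miR-103a-3p had 1001 and 7928 counts in the RKO pair, where its complement miR-103b had 6939 and 695. miR-4521 had 11563 and 1623 counts there, and miR-33a-5p, from an intron of the cholesterol regulator gene SREBF2, 6352 and 12508 against 14918 and 6546 in the HCT116 pair.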

How the results depend on the processing

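Depth was even, at 6823240 and 6818497 counts, and without a replicate no alternative measures the spread between cultures. The 35 higher and 35 lower miRNAs became 106 and 60 with a limit of 10 counts (639 miRNAs), 15 and 21 with a limit of 200 counts (251 miRNAs), and 18 and 14 with a 4-fold limit. They were 33 and 35 with TMM, 35 and 35 with DESeq2, 30 and 33 on CPM + 1, and 33 and 30 with antisense pairs summed. Without the 12 most abundant miRNAs in the totals they were 47 and 25, and the median log2 ratio of -0.08 became 0.05. DESeq2 gave both libraries a size factor of 1, so its results nearly repeat those by library totals and are no separate check. Of the families, 3 stayed at a median of at least 1 under TMM and DESeq2, and the clusters numbered 2 at a gap of 10 kb and 3 at 50 kb. The hairpins with an arm shift of at least 2 numbered 13, and 8 with an arm sum of 200, where fewer hairpins (133) entered. Summing antisense pairs reversed miR-3184-3p (-0.59 with miR-423-5p), miR-374c-3p (-0.33 with miR-374b-5p) and miR-7-5p (1.61 with miR-3529-3p). TMM moved every log2 ratio by the same -0.02, and DESeq2 moved every one by -0.001. Of 322 ratios of 161 named miRNAs under TMM or DESeq2, 297 moved by less than their counting interval and 25 by more. Since the shift is the same for all, this split depends only on the number of counts and is no check on the results.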
